A study of Mus musculus with 6 samples.

Results

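The genes described are the 35 listed aminoacyl-tRNA synthetases of the mouse, 20 of them cytosolic and 15 mitochondrial, out of 39179 gene identifiers counted in every library. They were found by matching each symbol to GENCODE M21 on GRCm38. The files' identifier for Mars1 carries the older symbol Mars there, and all 35 were present and passed the filter on low counts. The study measured polyA RNA in naive splenic CD4+ T cells of wild-type C57BL/6 mice aged 6 weeks that were cultured for 3 days under conditions inducing regulatory T cells (Tregs). Cells grew on coated anti-CD3 (2 µg/ml, a unit partly garbled in the labels) in medium holding 1 µg/ml anti-CD28, 5 ng/ml TGFβ1 and 40 ng/ml IL-2. The first group (3 libraries) also received DEL-1-Fc, a fusion of the secreted integrin ligand DEL-1 with the antibody Fc region, and the second (3 libraries) received the Fc control. No allele or agent other than these separated the groups. The labels do not say whether replicates are separate mice or cultures, so the spread behind each p-value is that of 6 libraries and may be technical.

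Aminoacyl-tRNA synthetases join each amino acid to its tRNA and so feed the ribosome. Cells of mammals keep one set for the cytosol and another, also encoded in the nucleus, for the ribosomes inside mitochondria. Lysyl- and glycyl-tRNA synthetase serve both places from a single gene, Kars and Gars. When charged tRNA runs short, the kinase GCN2 phosphorylates the initiation factor eIF2, translation of the transcription factor ATF4 increases, and ATF4 activates amino acid transporters, biosynthetic enzymes and many of the cytosolic synthetases. Activated T cells raise synthetase expression as they grow and divide.

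Library totals ran from 33364166 to 58075983 counts in DEL-1-Fc and from 55318383 to 61967687 in Fc. DEL-1-Fc replicate 1 was the shallowest and stood apart from DEL-1-Fc replicates 2 and 3 on the first and second principal components. These carried 44% and 23.3% of the variance. On the first, that library lay at -47.7, against -14.27 and -12.79 for DEL-1-Fc replicates 2 and 3 and 22.69 to 27.49 for Fc. Results are therefore also given without DEL-1-Fc replicate 1 where it matters. The lowest count of any synthetase gene in any library was 286 (Wars2, DEL-1-Fc replicate 1). The cells carried the defining T cell markers, with Cd4 at 612 to 664 CPM (counts scaled to library size with TMM factors) in DEL-1-Fc and 623 to 681 CPM in Fc. Foxp3, the factor that defines Tregs, stood at 465 to 584 CPM in DEL-1-Fc and 316 to 414 CPM in Fc. Of the 8 T cell markers edgeR called 2 higher, Trbc1 and Trbc2 (log2 fold change 0.39 and 0.43), and of the 6 Treg markers 2 higher, Foxp3 and Nt5e, and 1 lower, Ctla4 (-0.30, adjusted p = 0.031). Cd8a, which marks CD8+ T cells, was at 3.596 to 4.487 CPM in DEL-1-Fc and 2.29 to 2.52 CPM in Fc (log2 fold change 0.78, edgeR adjusted p = 0.00607), and the part of these differences in the results was not tested. Summed markers of B cells were at 5.80 to 7.07 CPM in DEL-1-Fc and 4.90 to 6.15 CPM in Fc, those of myeloid cells at 0.335 to 0.658 CPM and 0.164 to 0.457 CPM, and those of dendritic cells, nearly all from Zbtb46, at 6.46 to 7.04 CPM and 8.87 to 9.02 CPM. Markers of NK cells did not exceed 0.0911 CPM in sum in any library, and all 3 platelet markers had 0 counts. In bulk RNA, fewer cells of a type and less RNA per cell cannot be told apart.

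Synthetase mRNAs were abundant for the cytosol and scarce for the mitochondrion. On a length-scaled measure (TPM, which divides counts by exon length and sets every library to the same total), the median of the 20 cytosolic genes was 155 TPM in DEL-1-Fc and 179 TPM in Fc, and that of the 15 mitochondrial genes was 17.1 TPM in DEL-1-Fc and 17.2 TPM in Fc. The highest level belonged to Gars, which charges glycine in both compartments, at 385.9 ± 17.98 TPM in DEL-1-Fc and 441 ± 6.50 TPM in Fc (SD, n = 3 each). Kars, the other shared enzyme, came next at 307 ± 3.16 TPM in DEL-1-Fc and 304 ± 6.25 TPM in Fc. Vars, for valine, measured 274 ± 24.6 TPM in DEL-1-Fc and 297 ± 3.95 TPM in Fc; in Fc the mean ± SD ranges of Kars and Vars overlap. Among cytosolic genes the lowest in both groups was Cars, for cysteine, at 47.8 ± 2.93 TPM in DEL-1-Fc and 62.2 ± 0.871 TPM in Fc. In Fc its neighbour in the order was Eprs, the fused enzyme for glutamate and proline, at 67.1 ± 2.68 TPM, against 63.3 ± 5.10 TPM in DEL-1-Fc. Mitochondrial genes ran from Wars2, for tryptophan, at 5.12 ± 0.523 TPM in DEL-1-Fc and 5.15 ± 0.312 TPM in Fc, up to Tars2 (threonine), Iars2 (isoleucine), Rars2 (arginine) and Yars2 (tyrosine). Iars2 had 48.3 ± 3.73 TPM in DEL-1-Fc and 49.1 ± 1.00 TPM in Fc, and Rars2 had 47.0 ± 2.45 TPM and 48.3 ± 0.402 TPM, so these neighbours did not differ beyond their spread. In Fc every cytosolic mean lay above every mitochondrial mean, whereas in DEL-1-Fc the mean of Cars lay below those of Tars2 (51.1 ± 1.01 TPM) and, by less than the SD, Iars2. Levels per length rest on the exon length taken, which merged the exons of all annotated transcripts of a gene and can exceed any single mRNA. Eprs, with 18102 such bases, ranked low per length although it had 360 CPM in Fc, against 121.5 CPM for Cars (6583 bases). The order by TPM, including that of Eprs, Cars and Iars2 (8885 bases), is therefore uncertain. Of the exonic bases of Iars2, 2034 (22.9% of its exon length) also belong to Rab3gap2 on the other strand.

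**Figure D1:**
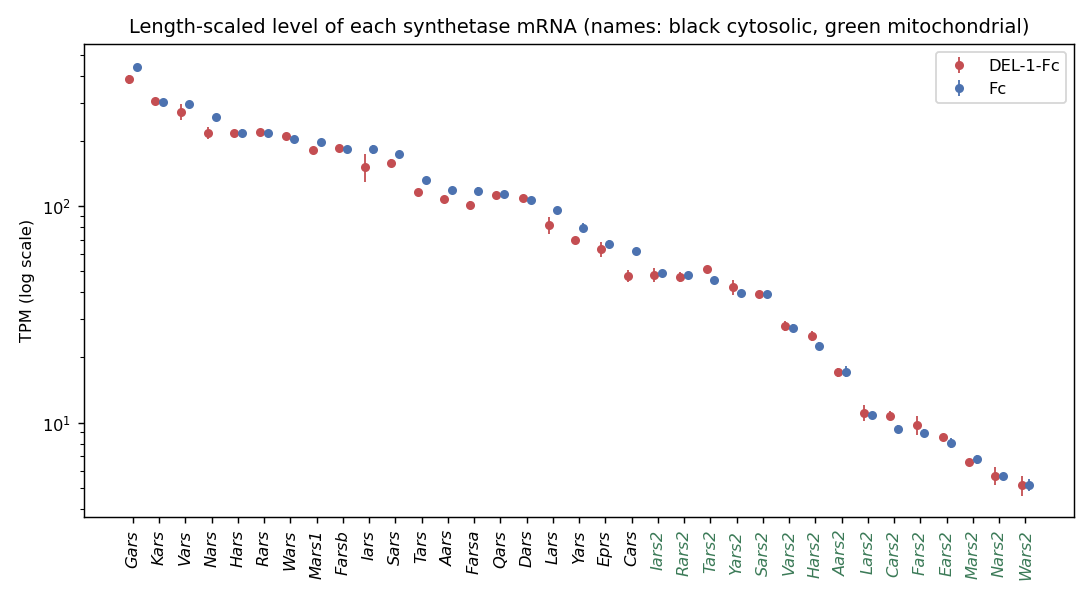
Mean TPM (log axis) of each of the 35 synthetase genes in DEL-1-Fc and Fc, ordered by the Fc mean, with bars for the SD of 3 libraries where they exceed the symbol. Cytosolic genes (black names) run from Gars at 441 TPM in Fc to Cars at 62.2 TPM in Fc, and all mitochondrial genes (green names) lie below 50 TPM in Fc (the highest is Iars2 at 49.1 TPM).

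The mRNAs of 3 cytosolic synthetases, those for cysteine, asparagine and leucine, were lower in DEL-1-Fc at an edgeR adjusted p under 0.05. Cars was at 95.1, 87.6 and 97.9 CPM in DEL-1-Fc replicates 1 to 3, against 122, 119 and 123 CPM in Fc replicates 1 to 3. The lowest Fc library lay well above the highest DEL-1-Fc library. Its log2 fold change was -0.38 (SE 0.0618, edgeR adjusted p = 0.00477), which is 1.3-fold lower in DEL-1-Fc. Cars (ENSMUSG00000010755) is annotated at chr7:143557230-143600090 (GRCm38, minus strand), and 3.21% of its exon bases overlap the pseudogene Gm15580 on the other strand. It was called in every one of the 14 alternative settings, with log2 fold changes between -0.41 and -0.33 and adjusted p between 3.91e-06 and 0.0342.

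Nars, which charges asparagine, had 280.4, 276 and 290.2 CPM in DEL-1-Fc, against 334, 339 and 331 CPM in Fc. All 3 DEL-1-Fc values were below all 3 Fc values, by more than the range within either group. The log2 fold change was -0.25 (SE 0.0578, edgeR adjusted p = 0.0248). Lars, for leucine, an enzyme also described as a leucine sensor upstream of mTORC1, had 126, 126 and 138 CPM in DEL-1-Fc, against 152, 152 and 155 CPM in Fc. DEL-1-Fc replicate 3 was the nearest to Fc but did not reach it. The log2 fold change was -0.23 (SE 0.0606, edgeR adjusted p = 0.0362). Both genes lie on the minus strand of chromosome 18, and neither shares a 31-base word with another annotated transcript. Their calls did not hold when any Fc library or DEL-1-Fc replicate 2 was left out. Leaving out an Fc library also lowered the share of all genes called, from 12.6% to between 5.95% and 6.4%. Leaving out Fc replicate 1, 2 or 3 raised the edgeR adjusted p of Nars to 0.113, 0.129 and 0.103 and that of Lars to 0.138, 0.128 and 0.15. Leaving out DEL-1-Fc replicate 2 raised them to 0.0559 and 0.0748. Over all 14 alternatives the adjusted p ranged from 0.00035 to 0.129 for Nars and from 0.00639 to 0.15 for Lars, and their log2 fold changes stayed between -0.27 and -0.22 and between -0.28 and -0.21. With the replicate number as a block, Nars was not called (adjusted p = 0.0522).

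Across all 14928 genes tested, 12.6% were called in either direction, 6.4% higher and 6.22% lower. Of the 20 cytosolic synthetases 3 were called lower, which is 15%, and 0 higher. Of the 20 genes, 15 had a negative and 5 a positive log2 fold change, with a median of -0.13, against a median of 0.01 over all genes tested. With no scaling factors 13 of the 20 were negative and the cytosolic median was -0.10. In 9 of the 20 (45%) all DEL-1-Fc libraries lay below all Fc libraries, which held for 17.5% of all genes tested, and in 0 they lay above, which held for 17.3%. Summed over the 20 genes, the level was 4808, 4385 and 4585 CPM in DEL-1-Fc, against 5027, 4866 and 4995 CPM in Fc.

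**Figure D2:**
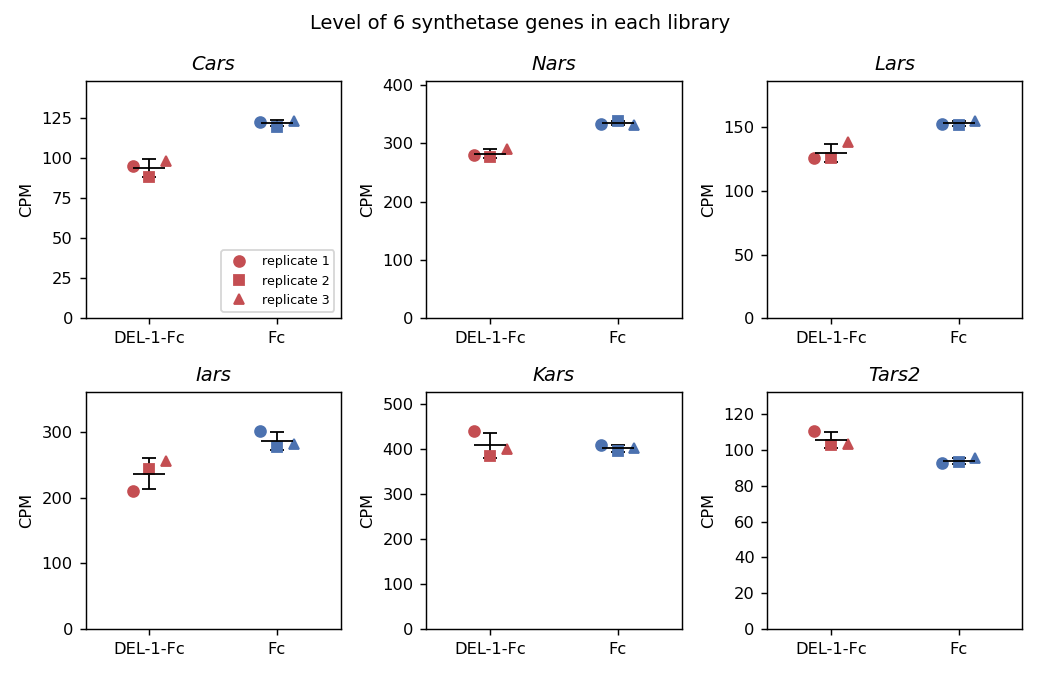
CPM in each library for 6 synthetase genes, DEL-1-Fc at left and Fc at right in each panel, with the mean and SD of 3 libraries. Cars, Nars and Lars passed the test, Iars did not (adjusted p = 0.0622) although its groups separate, Kars overlaps, and Tars2 is higher in all 3 DEL-1-Fc libraries without passing (adjusted p = 0.0991).

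The other 6 cytosolic genes whose groups separated did not pass the test. Iars, for isoleucine, had 211, 244 and 257 CPM in DEL-1-Fc, against 302, 277 and 282 CPM in Fc (log2 fold change -0.27, SE 0.082, edgeR adjusted p = 0.0622). DEL-1-Fc replicate 1 was the lowest Iars value, the reverse of its place for most other members. Iars shares 17.7% of its 31-base words with other genes, most of them with Gm4849, so its count is less certain. Gars had 370, 336 and 369 CPM in DEL-1-Fc, against 411, 401 and 413 CPM in Fc (log2 fold change -0.19, edgeR adjusted p = 0.0991). Tars (threonine), Yars (tyrosine), Mars1 (methionine, including the initiator) and Farsa, the catalytic subunit for phenylalanine, had log2 fold changes of -0.18, -0.19, -0.12 and -0.21 with edgeR adjusted p of 0.101, 0.134, 0.237 and 0.0603. DESeq2 called Iars, Gars and Farsa lower as well (adjusted p = 0.0184, 0.0382 and 0.0235), and it called 8.32% of all genes lower.

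The remaining listed ATF4 targets overlapped between groups. Aars, for alanine, had 322, 281 and 291 CPM in DEL-1-Fc, against 331, 322 and 328 CPM in Fc, and 22.7% of its 31-base words also occur in Exosc6. Sars, for serine, had 268, 221 and 239.9 CPM in DEL-1-Fc, against 268, 261 and 272 CPM in Fc. In both, DEL-1-Fc replicate 1 lay inside the Fc range or at its edge while DEL-1-Fc replicates 2 and 3 lay below it. Vars had 527, 446 and 404 CPM in DEL-1-Fc, against 499, 486 and 495 CPM in Fc, the widest spread of any cytosolic member in DEL-1-Fc (CV 13.6%). Eprs had 332, 333 and 356 CPM in DEL-1-Fc, against 373, 345 and 362 CPM in Fc. Their edgeR adjusted p were 0.25, 0.308, 0.522 and 0.452.

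At the other end stood a group of cytosolic enzymes with values near 0. Kars measured 439, 385 and 400.1 CPM in DEL-1-Fc, against 410, 394 and 401 CPM in Fc (log2 fold change 0.02, SE 0.0694). Rars (arginine), Dars (aspartate), Farsb, Hars (histidine) and Qars (glutamine) had log2 fold changes between -0.01 and 0.03 with SE of 0.055 to 0.0788. Wars, the tryptophan enzyme that interferon-γ induces, had 229, 211 and 209 CPM in DEL-1-Fc, against 204, 208 and 212 CPM in Fc. Its groups overlapped (log2 fold change 0.05, SE 0.0616, edgeR adjusted p = 0.614). Over the alternatives Hars spanned -0.09 to 0.06 and Kars -0.03 to 0.06, so neither kept a direction.

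**Figure D3:**
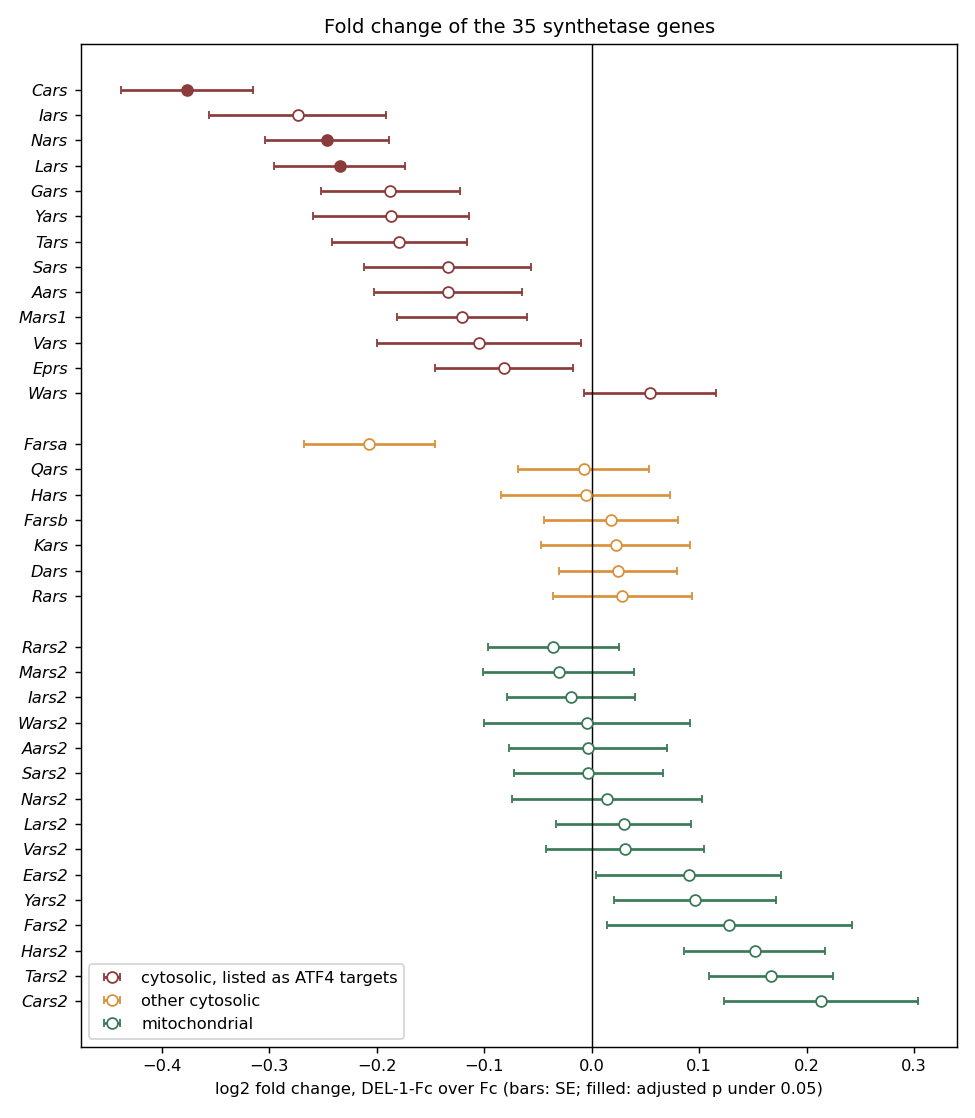
Log2 fold change (DEL-1-Fc over Fc, bars for the SE) of all 35 genes, grouped as cytosolic enzymes listed as ATF4 targets, other cytosolic enzymes and mitochondrial enzymes. Filled points passed the test (Cars, Nars and Lars), and the values run from -0.38 for Cars to 0.21 for Cars2.

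The cytosolic enzymes were divided by what is generally known of ATF4. This division followed no published list and was made with earlier results of these data known, so its counts only describe these genes. Of the 13 commonly listed among its targets (Aars, Cars, Eprs, Gars, Iars, Lars, Mars1, Nars, Sars, Tars, Vars, Wars and Yars), 12 had a negative log2 fold change, 3 were called lower by edgeR (23.1%, beside 6.22% of all genes) and 0 higher, and the median was -0.18. DESeq2 called 5 of the 13 lower and limma-voom 3, beside 8.32% and 5.93% of all genes. Of the 7 others (Dars, Farsa, Farsb, Hars, Kars, Qars and Rars), 3 were negative, 0 were called by edgeR in either direction, 1 had an unadjusted p under 0.05, and DESeq2 called 1 (Farsa) and limma-voom 0. Their median was 0.02. The 12 of 13 held in each of the 14 alternatives. The number of negative values among the 7 others moved between 1 and 6, and without DEL-1-Fc replicate 1 their median was -0.03. The enzyme for phenylalanine is built from the products of both Farsa and Farsb, and edgeR called neither gene. Reads of Farsa over reads of Farsb stood at 0.927, 0.967 and 0.958 in DEL-1-Fc, against 1.17, 1.09 and 1.07 in Fc. The groups separated, which in an exact permutation test of 3 against 3 gives the smallest two-sided p that it allows, 0.1 (0.133 after Benjamini-Hochberg adjustment over 16 ratios). The Farsb count shares 11% of its 31-base words with Sgpp2, which had 24 counts at most in any library.

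The cytosolic enzymes also divide by structure. Class I enzymes, with a Rossmann-fold active site, had 2 of 9 called lower by edgeR (median log2 fold change -0.12), and class II enzymes 1 of 10 (median -0.13), beside 6.22% of all genes. DESeq2 called 3 of each class lower, beside 8.32% of all genes. Without DEL-1-Fc replicate 1 edgeR called 5 of class I and 6 of class II, beside 9.98% of all genes. Eprs, which holds one domain of each class, had a log2 fold change of -0.08 (SE 0.0641). The multisynthetase complex joins 8 of the enzymes (Dars, Eprs, Iars, Kars, Lars, Mars1, Qars and Rars) to scaffold proteins. Of these 8, edgeR and limma-voom each called 1 lower (Lars) and DESeq2 2 (Iars and Lars). The shares of all genes called lower by edgeR, limma-voom and DESeq2 were 6.22%, 5.93% and 8.32%. Of the 8 enzymes 5 were negative, with a median of -0.04. Without a low-count filter edgeR also called Iars. The 3 scaffold genes Aimp1, Aimp2 and Eef1e1 had log2 fold changes of 0.19, 0.05 and -0.18, with edgeR adjusted p of 0.273, 0.756 and 0.128. DESeq2 and limma-voom also called 0 of the 3, and 1 had an unadjusted p under 0.05. Without DEL-1-Fc replicate 1 edgeR called 1 of the 3 scaffold genes lower, beside 9.98% of all genes.

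None of the 15 mitochondrial synthetases was called by edgeR, DESeq2 or limma-voom in either direction. At an unadjusted p under 0.05, edgeR had 3 higher and 0 lower, and DESeq2 and limma-voom each had 2 higher. The 3 were those whose DEL-1-Fc libraries all lay above Fc, 20% of the 15 against 17.3% of all genes tested. Tars2 had 111, 103 and 103 CPM in DEL-1-Fc, against 93.0, 93.3 and 95.7 CPM in Fc (log2 fold change 0.17, SE 0.058, edgeR adjusted p = 0.0991). Cars2 had 26.0, 21.2 and 22.5 CPM in DEL-1-Fc, against 20.8, 19.1 and 20.1 CPM in Fc (log2 fold change 0.21, SE 0.0901, edgeR adjusted p = 0.168). DEL-1-Fc replicate 1 was the highest for both. Hars2 had 32.1, 31.4 and 32.3 CPM in DEL-1-Fc, against 29.3, 27.2 and 29.7 CPM in Fc (log2 fold change 0.15, SE 0.0654, edgeR adjusted p = 0.177). Hars2 and Hars stand head to head on chromosome 18 and share 195 exonic bases on opposite strands, and without a stated strand setting those reads cannot be assigned. The other 12 genes had log2 fold changes between -0.04 and 0.13. The median over the 15 was 0.03, and the summed level was 601, 563 and 589 CPM in DEL-1-Fc, against 567, 553 and 569 CPM in Fc.

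Because both enzymes for an amino acid are counted in the same library, their ratio does not depend on how libraries are scaled. It was formed for the 15 amino acids with a member in each set, using Eprs with Ears2 and Farsa with Fars2. The mean log2 ratio of cytosolic to mitochondrial reads was lower in DEL-1-Fc for 13 of the 15 and higher for Rars over Rars2 and Wars over Wars2, with a median difference of -0.17. For cysteine the ratio was 3.66, 4.14 and 4.35 in DEL-1-Fc, against 5.86, 6.25 and 6.11 in Fc. For threonine it was 1.96, 1.89 and 1.96 in DEL-1-Fc, against 2.51, 2.42 and 2.45 in Fc. For leucine it was 3.55, 3.52 and 3.62 in DEL-1-Fc, against 4.18, 4.31 and 4.36 in Fc. In each of these 3 pairs the groups stood clearly apart. DEL-1-Fc replicate 1 sat with DEL-1-Fc replicates 2 and 3 for threonine and leucine. For cysteine it was the lowest and furthest from Fc, and its Cars2 level was the highest of its group (26.0, against 21.2 and 22.5 CPM). Over the 15 pairs, all DEL-1-Fc ratios lay below all Fc ratios in 10, above them in 1 and among them in 4. The 1 above was arginine, at 5.65, 5.39 and 5.40 in DEL-1-Fc, against 5.28, 5.09 and 5.34 in Fc. No such share was computed over other gene pairs. Among single genes, 34.8% of all tested had groups that did not overlap. The phenylalanine pair, among the 10 below, used Farsa (log2 fold change -0.21) rather than Farsb (0.02). For tryptophan the ratio was 26.3, 22.0 and 23.7 in DEL-1-Fc, against 22.1, 21.9 and 25.02 in Fc, and the groups overlapped. The exact permutation p of the cysteine, threonine, leucine and arginine ratios was 0.1 each, the smallest that this test allows for 3 against 3 (two-sided, 0.133 after adjustment over 16 ratios). No other test was run on the ratios.

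Genes of the GCN2 and ATF4 axis were read beside the synthetases, and whether the axis acts on the enzymes here was not tested. Of 40 genes of the axis, all tested, 22 were called lower by edgeR and 0 higher, 55% against 6.22% of all genes called lower, with a median log2 fold change of -0.39. The list was chosen with earlier results of these data known, so its share only describes these genes. In all, 35 had a negative and 5 a positive log2 fold change, and 18 were not called. Those 18 included Ddit3 (-0.04), Slc38a2 (-0.04), Slc1a5 (0.02), Cebpb (0.06) and Phgdh (0.23). Of the 40, DESeq2 called 24 lower and limma-voom 21, beside 8.32% and 5.93% of all genes. Atf4 itself had 367, 358 and 364 CPM in DEL-1-Fc, against 518, 503 and 499 CPM in Fc (log2 fold change -0.48, SE 0.0591, edgeR adjusted p = 0.00109). The transcript of Eif2ak4, which encodes GCN2, had 30.2, 35.7 and 34.3 CPM in DEL-1-Fc, against 37.6, 36.8 and 36.5 CPM in Fc, and did not pass (log2 fold change -0.14, SE 0.076, edgeR adjusted p = 0.265). Asns, which makes the asparagine that Nars attaches, had 22.8, 17.9 and 19.2 CPM in DEL-1-Fc, against 45.9, 43.4 and 44.1 CPM in Fc. It was 2.23-fold lower in DEL-1-Fc (log2 fold change -1.16, SE 0.0922, edgeR adjusted p = 0.000137). Chac1, which degrades glutathione, had 1.58, 1.40 and 1.501 CPM in DEL-1-Fc, against 6.92, 7.46 and 6.47 CPM in Fc (log2 fold change -2.22, SE 0.126, edgeR adjusted p = 4.4e-05). Sesn2, an inhibitor of mTORC1, and Atf3, an ATF4-induced repressor, fell by 1.29 and 2.08 on the log2 scale (SE 0.0793 and 0.125, edgeR adjusted p = 6.24e-05 for each). All 5 of the called genes named here were called in each of the 14 alternatives. The falls of the synthetases, at most 0.38 on the log2 scale, were smaller than that of Atf4 in every case.

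**Figure D4:**
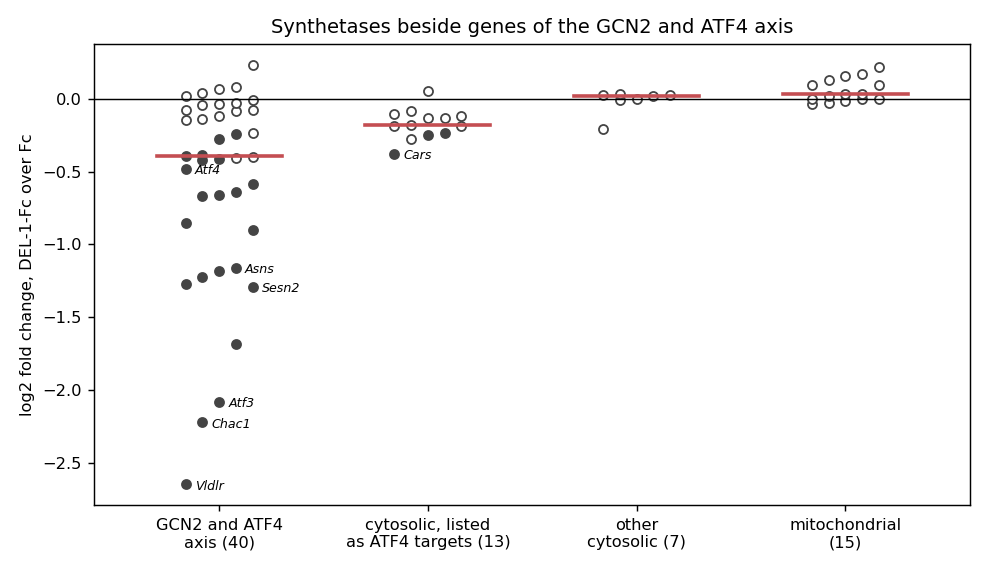
Log2 fold change (DEL-1-Fc over Fc) of 40 genes of the GCN2 and ATF4 axis, 13 cytosolic synthetases listed as ATF4 targets, 7 other cytosolic synthetases and 15 mitochondrial synthetases, with red lines at the medians (-0.39, -0.18, 0.02 and 0.03) and filled points past the test. The axis genes reach -2.64 (Vldlr, with at most 74 counts in a library) and the synthetases -0.38 (Cars).

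The start regions of the synthetase genes were read for the core of the C/EBP-ATF response element, to which ATF4 binds with C/EBP partners. The letters searched were TGATGNAA on either strand, in windows of 250 bases before to 50 bases after the start in the RefSeq table (build GRCm38.p6). A window was held for 13 cytosolic and 14 mitochondrial members. The letters occurred in 5 of the 13 cytosolic windows (Aars, Gars, Iars, Tars and Yars) and in 0 of the 14 mitochondrial ones, and in 4.51% of 27025 genes with a window. A match is a description of letters, not a shown binding site, and these regions were not assayed here. The 5 stretches are given to show where the letters stand; each runs from 120 bases before to 30 bases after the start, 5′ to 3′ on the gene's strand, with the matched letters in capitals (some match on the other strand). They were chosen after the search. Aars spans chr8:111033722-111033871 (plus strand), Gars chr6:55037881-55038030 (plus), Iars chr13:49682010-49682159 (plus), Tars chr15:11399629-11399778 (minus) and Yars chr4:129189783-129189932 (plus).
Aars: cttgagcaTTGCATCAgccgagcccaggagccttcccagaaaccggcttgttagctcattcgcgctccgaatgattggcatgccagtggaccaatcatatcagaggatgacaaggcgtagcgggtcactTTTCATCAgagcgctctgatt
Gars: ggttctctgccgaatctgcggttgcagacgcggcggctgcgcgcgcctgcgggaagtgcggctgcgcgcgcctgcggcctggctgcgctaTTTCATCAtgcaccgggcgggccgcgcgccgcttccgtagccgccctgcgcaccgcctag
Iars: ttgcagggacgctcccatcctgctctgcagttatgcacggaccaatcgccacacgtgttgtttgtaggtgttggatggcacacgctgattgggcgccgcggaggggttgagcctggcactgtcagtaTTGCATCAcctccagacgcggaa
Tars: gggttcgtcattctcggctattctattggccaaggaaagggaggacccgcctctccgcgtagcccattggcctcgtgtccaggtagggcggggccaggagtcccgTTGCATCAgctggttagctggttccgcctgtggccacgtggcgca
Yars: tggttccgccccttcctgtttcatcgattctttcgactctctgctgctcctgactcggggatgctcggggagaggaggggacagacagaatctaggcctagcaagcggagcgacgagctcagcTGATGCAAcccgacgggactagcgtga
Aars holds the letters at a pair of places, one of them 112 bases before the start. The 5 genes with the letters had log2 fold changes between -0.27 and -0.13 with a median of -0.19, and edgeR called 0 of the 5 with all 6 libraries (4 had an unadjusted p under 0.05). DESeq2 called Gars and Iars lower, beside 8.32% of all genes, and limma-voom called 0. Without DEL-1-Fc replicate 1 edgeR called all 5 (adjusted p from 0.00829 to 0.0279), beside 9.98% of all genes called lower. The 8 cytosolic genes with a window that lacked the letters (Dars, Eprs, Farsa, Farsb, Kars, Mars1, Qars and Sars) had values between -0.21 and 0.02 with a median of -0.04. All 5 genes with the letters are among the 13 listed ATF4 targets, so this division partly repeats the one by ATF4 listing. In the GCN2 and ATF4 axis the letters occurred in 9 of 35 genes with a window. Cars, Hars, Lars, Nars, Rars, Vars, Wars and Hars2 had no window and were not searched. The 7 cytosolic genes among them had values between -0.38 and 0.05 with a median of -0.105. They include Cars, Lars and Nars, so none of the synthetases called by edgeR with all 6 libraries was searched.

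Of 22 genes of tRNA maturation and export, edgeR called 3 higher, which is 13.6% against 6.4% of all genes called higher, and 0 lower, against 6.22%. DESeq2 called 4 higher and 1 lower, beside 16.3% of all genes called in either direction. At an unadjusted p under 0.05, edgeR had 6 higher and 1 lower. The 3 were Maf1, the repressor of RNA polymerase III, at 85.6, 67.7 and 70.5 CPM in DEL-1-Fc, against 54.6, 58.0 and 62.01 CPM in Fc (log2 fold change 0.36, edgeR adjusted p = 0.0417), Osgep, a tRNA-modifying enzyme (0.37, edgeR adjusted p = 0.0492), and Rpp25, a ribonuclease P subunit at a low level (0.86, edgeR adjusted p = 0.0339). DEL-1-Fc replicate 1 was the highest library for all 3. The 1 lower at an unadjusted p was Bdp1, a subunit of the RNA polymerase III initiation factor TFIIIB, at 75.2, 107 and 104 CPM in DEL-1-Fc, against 129.6, 127 and 122 CPM in Fc (log2 fold change -0.40, edgeR adjusted p = 0.0672). Limma-voom called none of them, and leaving out Fc replicate 1, 2 or 3 ended each call (adjusted p from 0.0795 to 0.183 for Maf1, 0.095 to 0.203 for Osgep and 0.0948 to 0.134 for Rpp25). Maf1 and Osgep were also not called without DEL-1-Fc replicate 3 (0.0713 and 0.078). Over the alternatives, Maf1 was called in 8 of 14, Osgep in 6 of 14 and Rpp25 in 9 of the 13 that tested it. Of 14 other charging and editing genes and 14 genes of mitochondrial translation, edgeR called 0 in either direction; 2 and 0 had an unadjusted p under 0.05, DESeq2 called 1 and 0, and limma-voom 0 and 0. Of 7 cytosolic elongation genes edgeR called 0 (1 at an unadjusted p under 0.05), DESeq2 1 and limma-voom 0.

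How many cytosolic synthetases were called depended on single libraries, most of all on DEL-1-Fc replicate 1. This library was the highest of its group for 15 of the 20 cytosolic genes and the lowest for 3, and DEL-1-Fc replicate 2 was the lowest for 15. Without DEL-1-Fc replicate 1, 11 of the 20 were called lower (Aars, Cars, Farsa, Gars, Iars, Lars, Nars, Sars, Tars, Vars and Yars), 10 of them from the 13 listed ATF4 targets, and 0 higher. The share of all genes called lower was then 9.98%, and that called in either direction 19.7%. The median log2 fold change of the 20 was -0.20 there, against -0.13 with all 6 libraries. Without DEL-1-Fc replicate 2, or without Fc replicate 1, 2 or 3, Cars was the only one called. The shares of all genes called lower were then 5.98%, 3.12%, 3.08% and 3.18%. In none of these fits was a mitochondrial synthetase called. The part of the depth of DEL-1-Fc replicate 1 in this was not tested.

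**Figure D5:**
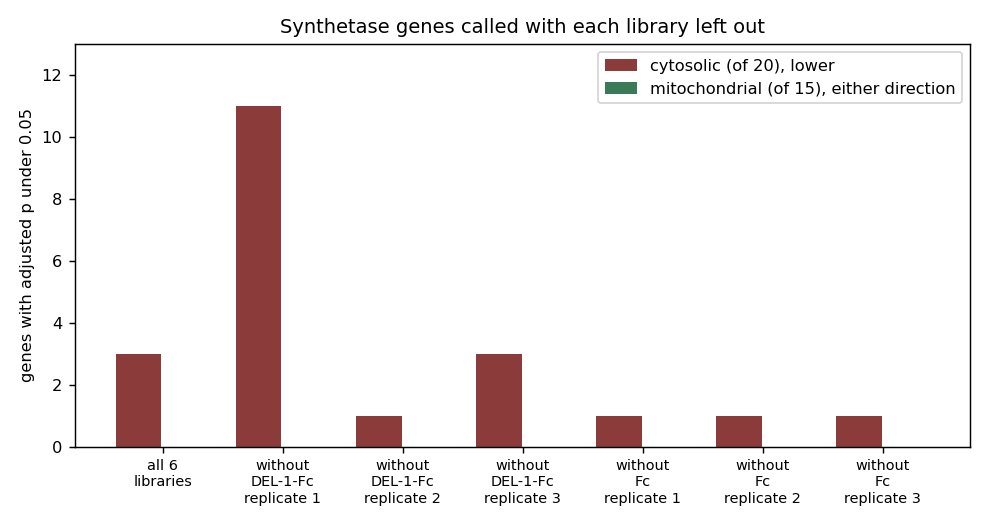
Number of synthetase genes with an edgeR adjusted p under 0.05, with all 6 libraries and with each left out in turn; bars start at 0. The cytosolic count is 3 with all libraries, 11 without DEL-1-Fc replicate 1 and 1 without DEL-1-Fc replicate 2 or any Fc replicate, and the mitochondrial count is 0 throughout.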

How the data were processed

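PolyA RNA libraries, 3 labelled DEL-1-Fc and 3 labelled Fc, were analysed, grouped by the treatment labels. Each deposited file lists unnormalized read counts by Ensembl gene for a single library, made with STAR and HTSeq 0.6.0 on GRCm38 (mm10), as the submitters' processing notes name them. The annotation release, strand setting and treatment of multi-mapping reads are not stated, so overlapping and sequence-sharing genes are uncertain; shared 31-base words were counted over GENCODE M21 transcripts. Of 39179 identifiers, 37693 matched GENCODE M21.

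Counts were tested with edgeR 4.0.16 (R 4.3.3): filterByExpr (minimum count 10, total 15) kept 14928 genes, followed by TMM scaling, the robust quasi-likelihood test and Benjamini-Hochberg adjustment over all genes kept, with calls at 0.05. The SE is the absolute log2 fold change (DEL-1-Fc over Fc) over the square root of F. TPM used exon lengths from GENCODE M21, merged over all transcripts of each gene. Ratios were compared by exact permutation (scipy 1.17.1). The test was checked on simulated counts whose planted log2 changes were all larger than that of any synthetase, so changes of the size seen here were not covered. The members and lists were chosen with earlier results of these data known. The rule for named genes took all 35 members, up to 4 called genes with the smallest p of each related list, and Atf4 and Eif2ak4; promoter stretches, the ratios set out and other names were chosen after values were seen. Alternatives were DESeq2 1.42.0, limma-voom (limma 3.58.1), other scaling (RLE, upper quartile, library sizes alone), no low-count filter, 5 CPM in 3 libraries, the replicate number as a block, and each library left out. Deviations of same-numbered libraries correlated at 0.0163, 0.0885 and 0.0425, and those of differently numbered ones at -0.0913 to 0.0382. These values cannot settle whether the numbers pair libraries, and the main test used no pairing.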

Additional observations from a re-analysis of the deposited data

How the results depend on the processing

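Over 35 genes and 14 alternatives, 468 single-gene results kept their side of the threshold, 10 lost a call, 12 gained one and 0 called genes changed sign. The count of cytosolic synthetases called lower was 3 with all libraries, 6 with DESeq2, 2 with library sizes alone (where Lars had an adjusted p of 0.0743), 2 with the replicate block (where Nars was not called), 4 without a low-count filter, and 1 to 11 with a library left out. Counts over all genes ran from 428 to 1485 higher and from 466 to 1518 lower with a library left out, against 956 and 928. The replicate block called 733 genes higher and 777 lower. Whether same-numbered libraries pair could not be settled from the correlations of their deviations. The GCN2 and ATF4 count, an alternative chosen after seeing the data, ran from 16 to 25. No library scaling turned the cytosolic median positive (-0.13 to -0.10 over RLE, upper-quartile and no factors). Mitochondrial calls were 0 in all 14 alternatives. The lowest member counts, 286 for Wars2 and 375 for Nars2, both in DEL-1-Fc replicate 1, carry the largest counting error, so small changes of the scarcest mitochondrial mRNAs are the least well resolved.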
